A study of Homo sapiens with 9 samples.

Results

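The genes described here are the D-type cyclins CCND1, CCND2 and CCND3, the E-type cyclins CCNE1 and CCNE2, the kinases CDK4, CDK6 and CDK2, the kinase inhibitor CDKN1B (p27) and the retinoblastoma gene RB1. These 10 genes were chosen by name for their place in the G1 phase of the cell cycle, out of 26869 genes with a symbol in the data, and all 10 were measured. The libraries are SLAM-Seq libraries, in which newly made mRNA is tagged with 4-thiouridine (4sU) and the tagged uridines are read as T-to-C conversions after alkylation with iodoacetamide. All cells were MCF10A, a non-transformed human mammary epithelial line, with the JUN gene knocked out and with a JUN protein fused to an auxin-inducible degron (JUN-AID-V5) and the plant receptor TIR1 introduced by infection. The knockout was made with a guide in JUN and grown from single cells, and the fusion was expressed from an EF1a promoter; whether the cells were cloned again after infection is not described. The no 4sU group held 3 libraries of cells that did not receive 4sU, and the solvent given to them was not named in their label. The DMSO 4sU group held 3 libraries of cells given the solvent DMSO and 100 µM 4sU for 1 h. The IAA 4sU group was given 100 µM of the auxin indole-3-acetic acid (IAA), which triggers degradation of the fusion protein, for 1 h before 100 µM 4sU was added for 1 h. The 3 columns of the IAA group held identical values in all 56868 rows of the table, so they were counted as 1 library, and which of the 3 replicates it was cannot be told.

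A cell leaves G1 when cyclin-dependent kinases phosphorylate the retinoblastoma protein, which holds E2F transcription factors inactive. Growth factors act first through the D-type cyclins, which bind CDK4 and CDK6, and the E-type cyclins then activate CDK2 close to the start of DNA replication. CDKN1B binds these cyclin-kinase complexes and restrains CDK2. The AP-1 family, to which JUN belongs, is known as an activator of CCND1 in growth-stimulated cells. In SLAM-Seq, a transcript that is made and destroyed quickly gathers conversions faster than a stable transcript of the same abundance.

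Reads of these libraries come from the 3′ end of transcripts, so the measured stretch of each gene was an interval at its 3′ untranslated region (UTR). On the human build hg19, these intervals matched a 3′ UTR exon of GENCODE in length, exactly for CCND1, CCNE1, CDK2, CDK4, CDK6 and RB1 and within 3 bases for CCND2, CCND3 and CCNE2. For CDKN1B the exon was 1334 bases and the interval 1347 bases. AU-rich letters in this region are known to bind proteins that shorten the life of an mRNA. The sequences below are shown because the genes on which the labelling results turn, CDKN1B and CCND1 with high and CCND2 with low conversion rates, share these letters with CDK6, CDK2 and RB1. CCNE2, also with a high rate, held 3 copies of TATTTAT, as did CDK6, and its window is not shown. Each is a 25-base window of the 3′ UTR in GRCh37, written 5′ to 3′ on the strand of the gene, and the capitals mark the copy of the AU-rich letters TATTTAT nearest the 3′ end, searched on that strand only.
CDKN1B, chr12:12875062-12875086, plus strand: atactaactTATTTATgttaaaaga
CCND1, chr11:69467464-69467488, plus strand: taaaaagtaTATTTATtgcagagga
CCND2, chr12:4413660-4413684, plus strand: tcaagaggaTATTTATtacttcctc
CDK6, chr7:92234528-92234552, minus strand: aaatgtaggTATTTATtgtcagatg
CDK2, chr12:56366324-56366348, plus strand: gaacaattaTATTTATatttcaggt
RB1, chr13:49055294-49055318, plus strand: gcaattgtcTATTTATcttttattt

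The shorter letters ATTTA, which lie within TATTTAT, occurred 7 times in the 3′ UTR of CDKN1B, 7 times in CCND1, 8 times in CCND2, 10 times in CCNE2, 12 times in RB1 and 26 times in the 10222 bases of CDK6. CCND3 and CDK2 held 2 each, and CCNE1 and CDK4 held 0. Per kb of UTR, CCNE2 had 7.09 copies, RB1 6.59 and CDKN1B 5.25, and the other genes with a copy had between 1.496 and 2.54. Across 1917 measured genes whose 3′ UTR matched exactly and had at least 500 bases, 69.3% held ATTTA and 18.8% held TATTTAT in the last 500 bases. The median conversion rate of these genes with DMSO and 4sU was 0.217% with ATTTA and 0.223% without it, and that of the 360 genes with TATTTAT was 0.245%. Over the whole 3′ UTR, CCND2 and CCND1 both carried TATTTAT. They had the lowest and one of the highest conversion rates among the 10 genes. In the last 500 bases, CCND1 held 0 copies of ATTTA and CCND2 held 1. There CCND1, CCND2 and RB1 held 0 copies of TATTTAT, and CDKN1B, CDK6, CDK2 and CCNE2 held 1 each. The share of all genes with these letters in the whole UTR was not counted. A link between letters and rate was not tested.

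The 7 distinct libraries held between 18997637 and 24014195 reads. The no 4sU replicate 1 library stood apart in total mRNA: 308 genes were higher and 327 lower in it than in both other no 4sU libraries, by at least 1 log2 unit from their mean, against 17 and 18 for replicate 2 and 35 and 22 for replicate 3. Among the genes lower in it were CDK2, by -1.70, and CDK6, by -1.02 on the log2(CPM + 1) scale, so values of these genes are also given without replicate 1. CDK2 was also among the genes higher in no 4sU replicate 3, by 1.10. By the same measure DMSO 4sU replicate 1 had 110 higher and 53 lower genes, with 0 members among them, and replicate 2 had 12 higher and 128 lower, among them CDK4, at -1.26. All 6 markers of basal mammary epithelium and all 4 epithelial markers reached 1 CPM, the read count scaled to a common library size, in every library, with summed levels of 1772 to 2661 CPM and 327 to 451 CPM. The hormone receptor markers ESR1 and PGR summed to at most 0.470 CPM. Fibroblast, endothelial and leukocyte markers summed to at most 9.92, 1.08 and 7.93 CPM. COL1A2, CDH5, VWF, PTPRC and CD3E were at 0 CPM in every library. The fibroblast marker COL1A1, at 3.21 to 9.82 CPM, and the leukocyte marker CD68, at 1.68 to 7.93 CPM, reached 1 CPM in every library. The basal marker KRT14, at 3.63 to 10.6 CPM, was at a level like that of COL1A1. JUN itself ranged from 45.0 to 57.6 CPM without 4sU and from 20.3 to 30.2 CPM with DMSO and 4sU, and was at 62.9 CPM in the IAA library. The knockout was described as frame shifts, which leave the 3′ UTR in place, and whether the construct carried this UTR is not described, so these reads check no label.

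In labelled cells without IAA, the kinase CDK4 had the highest mean mRNA level of the set per length, and CDKN1B and CCNE2 had the lowest. CDK4, the partner of the D-type cyclins, had 99.3 CPM per kb of interval ± 42.1 (SD, n = 3). CCND3 followed with 49.7 ± 7.69, CDK2 with 38.1 ± 6.09, CCND1 with 34.1 ± 4.78, CDK6 with 29.2 ± 4.04, CCNE1 with 23.1 ± 5.94, CCND2 with 22.6 ± 3.85 and RB1 with 19.0 ± 3.99 CPM per kb. The ranges of each pair of neighbours in this order overlapped, up to RB1. Below RB1, whose lowest library was at 14.4 CPM per kb, came CCNE2 at 5.70 ± 0.957 and CDKN1B at 5.54 ± 0.490 CPM per kb, and the highest of their libraries was at 6.74. Reads of a 3′ library gather at the end of a transcript, so CPM per kb understates genes with a long interval, and the order depends on this division: undivided means were 299 CPM for CDK6, 121 for CCND2 and 109 for CCND1, against 79.5 for CDK4.

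**Figure D1:**
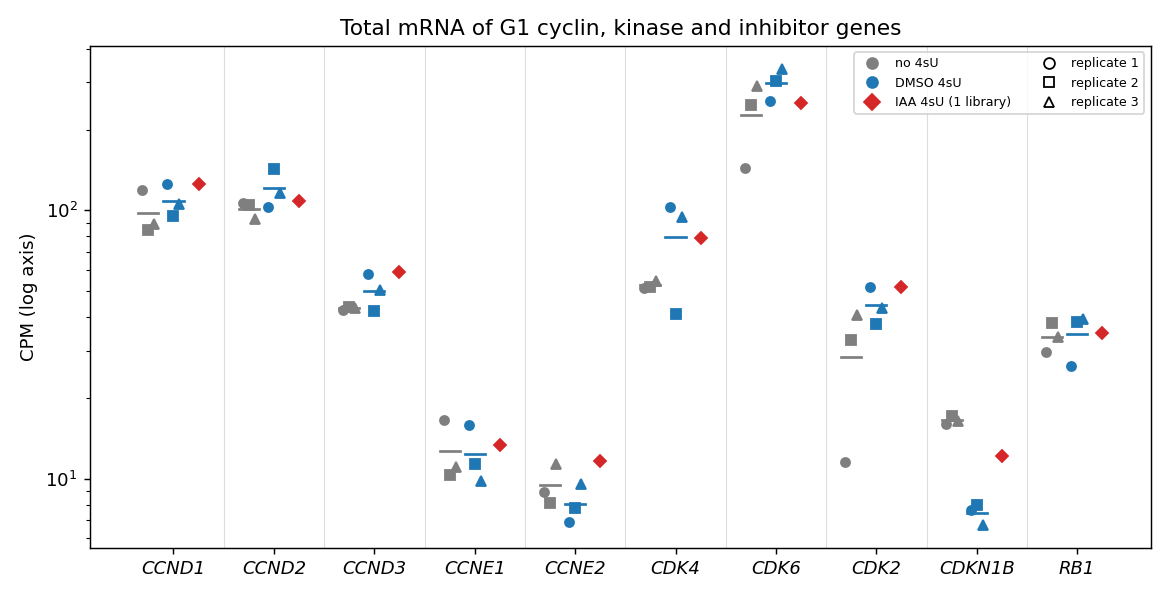
Total mRNA of the 10 genes in each library, in CPM on a log axis, with grey for no 4sU, blue for DMSO 4sU and a red diamond for the single IAA 4sU library. Shapes mark the replicate and short lines the group mean; CDKN1B is at 15.97 to 17.2 CPM without 4sU and at 6.72 to 7.995 CPM with DMSO and 4sU, and CDK2 and CDK6 are lowest in no 4sU replicate 1.

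Labelling for 1 h raised the conversion rate of CDKN1B far above that of the other genes. The rate is the share of T positions in the reads of an interval that were read as C. Without 4sU, where it measures sequencing error and other background, CDKN1B was at 0.0558%, 0.0115% and 0.0562%. With DMSO and 4sU it was at 3.20%, 3.40% and 1.66%, so the lowest labelled library was above every unlabelled library. The mean of 2.75% ± 0.953 (SD, n = 3), from the 1347-base interval alone, exceeded that of 98.9% of the 7364 genes tested. The rates of those genes were averaged over all their intervals. An 11-base interval of CDKN1B with a rate of 0 would lower its mean on that basis. Its lowest library was also above the highest library of any other member, and in this order of rates CDKN1B was the only gene whose range did not overlap that of its neighbour. These values come from 135 to 192 reads in each labelled library, and how many T positions they covered is not in the table, so no counting interval can be given.

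Behind CDKN1B the order by mean rate with DMSO and 4sU was CCNE2, CCND1, CCNE1, CDK2, CCND3, CDK6, RB1, CDK4 and CCND2, with overlapping ranges between all neighbours. The labelled group was tested against the no 4sU group with limma on log2(rate + 0.0005), with rates as fractions and Benjamini-Hochberg adjusted p-values over all genes that had at least 200 reads on average. Among 7364 genes, labelling raised the rate of 4520 (61.4%) and lowered that of 6 (0.0815%). Of the 10 members, 9 had enough reads and 5 of these 9 rose, 0 fell, which is near the share over all genes. The median change was 1.21 log2 units over the 9 members and 1.14 over all genes. The study calls the replicates of this experiment biological; how the cultures were kept apart is not described.

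Among the D-type cyclins, which couple growth factor signals to CDK4 and CDK6, the rates of CCND1 and CCND3 rose and that of CCND2 did not pass the test. CCND1 was at 0.0593%, 0.0713% and 0.0935% without 4sU and at 0.495%, 0.342% and 0.396% with it, with no overlap. The change on the log2(rate + 0.0005) scale was 1.88 (SE 0.27, limma adjusted p = 0.00201). CCND3 went from a mean of 0.0874% ± 0.0196 to 0.246% ± 0.0630 (SD, n = 3 each), a log2 change of 1.10 (SE 0.27, limma adjusted p = 0.0129). CCND2 stayed close to background, at 0.0670% ± 0.00869 without and 0.0879% ± 0.00760 with 4sU. Its log2 change was 0.24 (SE 0.21, limma adjusted p = 0.320), although its lowest labelled library, at 0.0794%, was above its highest unlabelled library, at 0.0758%. This low rate did not go with few reads: CCND2 had between 1764 and 3440 reads per library and CCND1 between 1689 and 2670. A mean rate below that of CCND2 was seen in 8.42% of genes tested, and below that of CCND1 in 80.1%.

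The E-type cyclins, which activate CDK2, had few reads and rates that differed widely between labelled libraries. CCNE1 was at 0.0762%, 0.153% and 0.672% with DMSO and 4sU, each above the 0.0453% to 0.0596% of the unlabelled libraries. Its log2 change of 1.36 (SE 0.61) did not pass the test (limma adjusted p = 0.0855). CCNE2 had 183 reads on average and was therefore not tested. Its rate was 0.847%, 0.183% and 0.501% with DMSO and 4sU and between 0.0211% and 0.107% without 4sU. With the minimum lowered to 50 reads, its log2 change was 2.27 (SE 0.58, limma adjusted p = 0.0200).

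Rates of the kinases CDK2 and CDK6 rose, and that of CDK4 did not pass the test. CDK6 was at 0.0621%, 0.0586% and 0.0537% without 4sU and at 0.245%, 0.195% and 0.168% with DMSO and 4sU, a log2 change of 1.21 (SE 0.23, limma adjusted p = 0.00509). CDK2, the partner of cyclin E, was at 0.0699%, 0.0369% and 0.120% without 4sU and at 0.455%, 0.278% and 0.157% with it. Its log2 change was 1.43 (SE 0.42, limma adjusted p = 0.0232). CDK4, at 0.0616% ± 0.0225 without and 0.119% ± 0.0445 with 4sU (SD, n = 3 each), had overlapping groups and a log2 change of 0.58 (SE 0.29, limma adjusted p = 0.110). The exons of CDK2, CDK4, CCND1 and CCNE2 overlap exons of PMEL, TSPAN31, LTO1 and INTS8 on the opposite strand, and whether counting used strand is not given in the sources used here.

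CDKN1B reached the minimum of mean reads for this test only through its unlabelled libraries, with 323, 384 and 312 reads in the 1347-base interval. Its DMSO 4sU libraries had 163, 192 and 135 reads there, each below that minimum. For CDKN1B, the log2 change in rate was 4.29 (SE 0.36, limma adjusted p = 0.000327). The table also lists an interval of 11 bases for this gene, with at most 3 reads and a rate of 0 in every library, which enters this mean; with the 1347-base interval alone the log2 change was 4.92 (SE 0.36, limma adjusted p = 6.79e-05). RB1, the substrate that these kinases inactivate, was at 0.396% in DMSO 4sU replicate 1 and at 0.0963% and 0.0929% in replicates 2 and 3. The unlabelled libraries of RB1 were between 0.0343% and 0.0686%, and the log2 change of 1.02 (SE 0.47) did not pass the test (limma adjusted p = 0.0926). The calls of CCND1, CDK6 and CDKN1B were made whichever replicate number was left out. CCND3 and CDK2 lost their calls without replicate 1, CDK2 also without replicate 2 and CCND3 also without replicate 3, which left 3 or 4 members called.

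**Figure D2:**
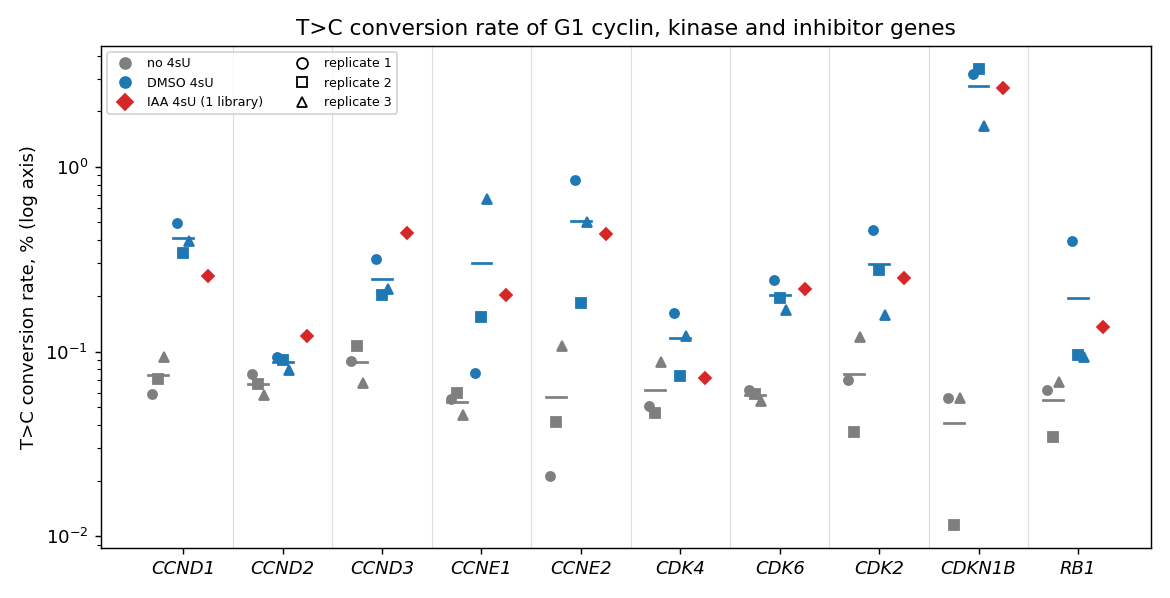
T>C conversion rate of the 10 genes in each library, in percent of T positions on a log axis, with grey for no 4sU, blue for DMSO 4sU and a red diamond for the single IAA 4sU library. Shapes mark the replicate and short lines the group mean; the labelled libraries of CDKN1B lie between 1.66% and 3.40%, above all other points of these groups, and those of CCND2 lie between 0.0794% and 0.0940%, next to its unlabelled libraries.

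The comparison of total mRNA between labelled and unlabelled cells asks whether abundance itself differed with 4sU, since the rate is a share of the mRNA that is present. CDKN1B was the only member that changed. Its level was 15.97, 17.2 and 16.4 CPM without 4sU and 7.66, 7.995 and 6.72 CPM with DMSO and 4sU, so the groups lay well apart. The log2(CPM + 1) change was -1.08 (SE 0.16, limma adjusted p = 0.0118), a fold of 0.472. Over all 11528 genes tested, 192 were lower with 4sU (1.67%) and 0 were higher (0%). Without adjustment limma gave 861 lower and 327 higher genes at a p under 0.05, edgeR with adjustment gave 185 lower and 0 higher, and DESeq2 gave 410 lower and 6 higher. The call of CDKN1B was also made by edgeR (adjusted p = 0.0118), by DESeq2 (adjusted p = 1.40e-06) and with the replicate number as a block in limma (adjusted p = 0.0193). It was lost without replicate 2 (log2 change -1.09, limma adjusted p = 0.201) and without replicate 3 (log2 change -1.0001, limma adjusted p = 0.416), and held without replicate 1 (log2 change -1.21, limma adjusted p = 0.00235). JUN, which was not chosen as a member, had a log2 change of -1.001 (SE 0.19, limma adjusted p = 0.03005) and a labelled rate of 2.49% ± 0.538 (SD, n = 3), both close to the values of CDKN1B.

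The other 9 members did not pass this test, and their median with CDKN1B included was 0.15 log2 units, against 0.04 over all genes. Of the cyclins, CCND1 differed by 0.13 (SE 0.17), CCND2 by 0.21 (SE 0.17), CCND3 by 0.17 (SE 0.16), CCNE1 by -0.06 (SE 0.22) and CCNE2 by -0.24 (SE 0.20) on the log2(CPM + 1) scale. The kinases had the largest positive differences, with CDK2 at 0.76 (SE 0.40, limma adjusted p = 0.583), CDK4 at 0.45 (SE 0.31, limma adjusted p = 0.683) and CDK6 at 0.41 (SE 0.27, limma adjusted p = 0.670). CDK2 was at 11.6, 32.8 and 40.6 CPM without 4sU and at 52.0, 37.9 and 43.4 CPM with it, so that the low value was that of the no 4sU library that stood apart. Without replicate 1 in both groups, the differences were 0.03 for CDK2, 0.14 for CDK6 and 0.11 for CDK4. Without replicate 2, which holds the low DMSO library of CDK4, they were 1.06, 0.50 and 0.86 (SE 0.23 for CDK4, limma adjusted p = 0.316), and without replicate 3 they were 1.12, 0.55 and 0.32, so that single libraries decided their size and none passed the test. RB1 differed by -0.01 (SE 0.20).

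**Figure D3:**
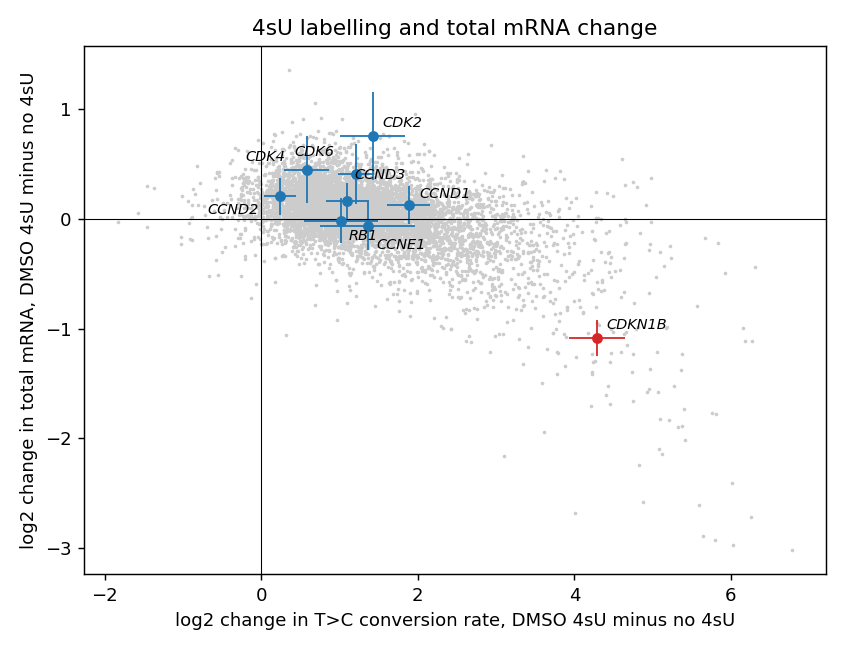
Change in total mRNA (vertical axis, log2 CPM + 1) against change in T>C conversion rate (horizontal axis, log2 rate + 0.0005), DMSO 4sU minus no 4sU, for each gene tested in both comparisons (grey dots). The 9 tested members are drawn with SE bars in blue, or in red where the total mRNA change passed the test; CDKN1B lies at 4.29 and -1.08, and the other members lie between 0.24 and 1.88 on the horizontal axis and between -0.06 and 0.76 on the vertical axis.

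The comparison of IAA with DMSO in labelled cells asks how these genes differed 1 to 2 h after degradation of JUN was started. With 1 distinct IAA library there was no test, and the IAA value was set beside the 3 DMSO 4sU libraries on the log2 scale. Over all genes, 16 were higher (0.139%) and 8 lower (0.0697%) in total mRNA by at least 1 log2 unit and outside the DMSO range, and 41.4% of 11474 genes lay outside that range at any size. Each DMSO library set against the other DMSO libraries in this way gave between 2 and 113 higher and between 4 and 130 lower genes. These counts rest on 1 DMSO library fewer, which makes the range easier to leave. With 1 DMSO library left out, IAA gave between 11 and 94 higher and between 1 and 17 lower genes. Of the 10 members 0 passed that fold and 4 lay outside the range, or 40.0%, a share near that of all genes.

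CDKN1B was farthest from its DMSO 4sU libraries, at 12.2 CPM with IAA against 6.72 to 7.995 CPM with DMSO and 15.97 to 17.2 CPM without 4sU. The IAA value was thus above all DMSO libraries and below all unlabelled libraries. Its difference from the DMSO mean was 0.56 log2 units, where the SD of the DMSO libraries was 0.11, and it ranged from 0.50 to 0.60 when each DMSO library was left out. With a pseudocount of 5 CPM the difference was 0.40. The same DMSO libraries enter the change of CDKN1B against no 4sU, so these comparisons are not independent. CCNE2 was above the DMSO range as well, at 11.7 CPM against 6.86 to 9.51 CPM (log2 difference 0.42). The unlabelled libraries of CCNE2 were at 8.13 to 11.3 CPM before scaling. The scaling divides by 1.06 for the IAA library and by 0.934 for no 4sU replicate 3, the highest of these. After it, the IAA value of CCNE2 lay within the unlabelled range. Below the range after scaling were CCND2, at 108 CPM against 103 to 143 CPM (log2 difference -0.23), and CDK6, at 252 CPM against 255 to 338 CPM (log2 difference -0.32), both by less than the distance between DMSO libraries. CCND1, a known target of AP-1, was at 125 CPM with IAA and at 125, 95.4 and 106 CPM with DMSO, a log2 difference of 0.12 within the DMSO range. The remaining differences, within the DMSO range, were 0.15 for CCND3, 0.06 for CCNE1, 0.01 for CDK4, 0.15 for CDK2 and -0.04 for RB1.

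In conversion rate, CCND1 lay below and CCND3 above their DMSO libraries. Rates were compared after centring each library on its median, which was 0.214% with IAA and 0.232%, 0.176% and 0.175% with DMSO. Of 7361 genes, 393 were higher (5.34%) and 429 lower (5.83%) by at least 1 log2 unit and outside the DMSO range, and 49.5% lay outside the range at any size. The DMSO libraries gave counts of the same order against each other, for example 565 higher and 550 lower genes in replicate 1. Those counts rest on 1 DMSO library fewer, which makes the range easier to leave. With 1 DMSO library left out, IAA gave between 453 and 513 higher and between 480 and 503 lower genes. Of the 8 members with enough reads, 0 passed the fold and 4 lay outside the range, or 50.0%.

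CCND1 had a rate of 0.255% with IAA and of 0.495%, 0.342% and 0.396% with DMSO, a centred log2 difference of -0.71 with a DMSO SD of 0.10. When the rate was multiplied by CPM to give the amount of converted mRNA, the difference was -0.60, and without centring of the rate it was -0.58. CCND3 was at 0.438% with IAA and at 0.319%, 0.203% and 0.217% with DMSO, a centred log2 difference of 0.61 with a DMSO SD of 0.11, or 0.75 for the rate multiplied by CPM. By that product CCND2 (-0.05) and CDK4 (-0.56) were within their DMSO ranges, while CDK6 (-0.36) and RB1 (-0.36) were below theirs. The D-type cyclins therefore lay on opposite sides of their DMSO libraries, and with 1 IAA library this difference was not tested. CCND2 was above the DMSO range by a small margin, at 0.122% against 0.0794% to 0.0940% (centred log2 difference 0.19). CDK4 was below it, at 0.0720% against 0.0734% to 0.162% (centred log2 difference -0.56), which is near its background of 0.0465% to 0.0874% without 4sU. CDK6, CDK2, CCNE1 and RB1 were within the range, with centred log2 differences of -0.03, -0.24, -0.20 and -0.30. CDKN1B and CCNE2 fell under the minimum of 200 reads; their rates with IAA, 2.67% and 0.433%, lay within their DMSO ranges of 1.66% to 3.40% and 0.183% to 0.847%.

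**Figure D4:**
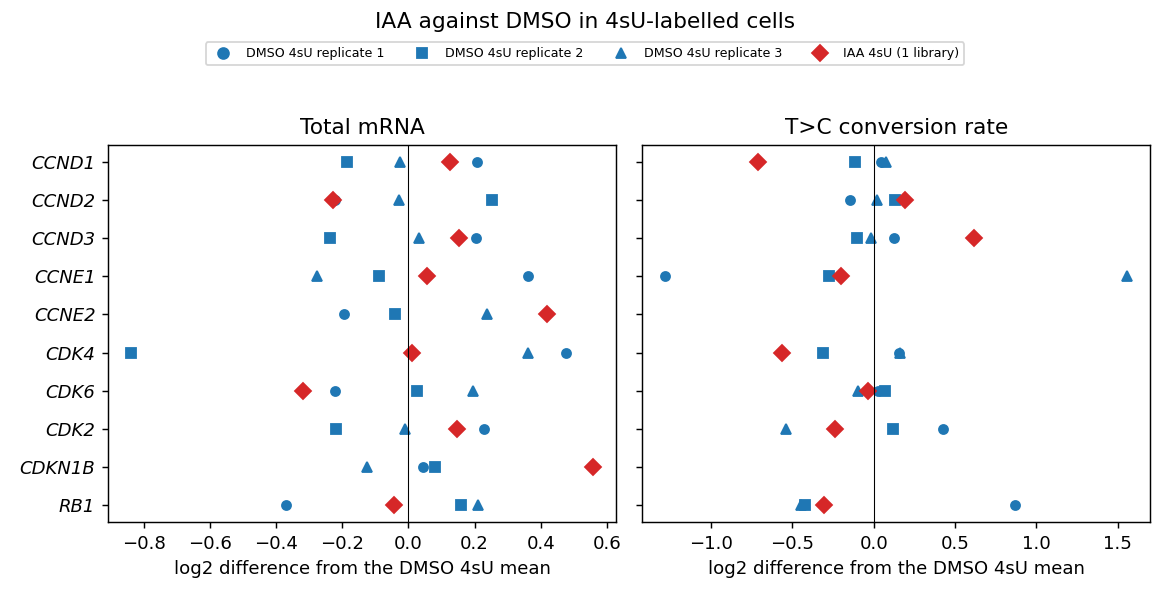
Difference of each labelled library from the DMSO 4sU mean for total mRNA (left, log2 CPM + 1 after scaling) and T>C conversion rate (right, log2 rate + 0.0005 after centring); blue shapes are the DMSO 4sU replicates and red diamonds the single IAA 4sU library. In total mRNA the IAA library of CDKN1B is at 0.56, right of its DMSO libraries; in rate CCND1 is at -0.71 and CCND3 at 0.61, left and right of theirs, and CCNE2 and CDKN1B have too few reads for the right panel.

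JUN binds DNA in AP-1 dimers, whose consensus letters are TGACTCA or, read on the other strand, TGAGTCA. In the RefSeq promoter windows of GRCh38.p14, from 250 bases before to 50 after each start, these letters were found on either strand in 4.95% of 35116 windows. Windows were at hand for CCND3, CCNE1, CDK4, CDK6, CDKN1B and RB1, and 0 of them held the letters, which says nothing of sites outside these windows.

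The wider pathway from G1 to S phase was taken as a list of 31 other genes, namely further inhibitors, RB1 relatives, E2F and DP factors, the CDK-activating kinase, ubiquitin ligase subunits, the phosphatase CDC25A, cyclin A (CCNA2) and CDK1. In total mRNA with 4sU, 29 of the 31 were tested and 0 passed with limma or edgeR, against 1.67% of all genes lower with limma. At an unadjusted p under 0.05 limma had 4 lower genes, and DESeq2 called 1 gene with adjustment, FBXW7. Their median change was -0.07 log2 units. FBXW7, the ubiquitin ligase subunit that targets cyclin E, came nearest, from 23.3 CPM ± 2.07 without 4sU to 14.3 CPM ± 1.46 with it (SD, n = 3 each), a log2 change of -0.70 (SE 0.16, limma adjusted p = 0.0801). CDKN2A and CDKN2B, inhibitors of CDK4 and CDK6, were at 0 reads in every library; MCF10A cells are known to lack this locus.

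The conversion rate rose for 11 of the 20 pathway genes with enough reads and fell for 0, where 61.4% of all genes rose. The largest changes were those of E2F3 (log2 3.77, SE 0.29, limma adjusted p = 0.000239), FBXW7 (log2 2.997, SE 0.31, limma adjusted p = 0.000688) and CDC25A, the phosphatase that activates CDK2 (log2 2.88, SE 0.41, limma adjusted p = 0.00195). CDKN1A, the p53-induced relative of CDKN1B, rose by a log2 change of 2.42 (SE 0.30, limma adjusted p = 0.00117). CUL1, E2F7, CDK1, CDK7, E2F4, TFDP1 and TFDP2 rose as well. The median change over the 20 genes was 0.97 log2 units, against 1.14 over all genes. CDKN1A had a labelled rate of 0.739% ± 0.236 and E2F3 of 1.28% ± 0.271 (SD, n = 3 each). Both were under the lowest CDKN1B library, at 1.66% in its 1347-base interval alone. With its 11-base interval averaged in, CDKN1B would be lower, and that comparison is not given.

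With IAA, 0 of 28 tested pathway genes passed the fold in total mRNA. In conversion rate, 2 of 20 were higher and 1 lower past the fold, against 5.34% and 5.83% of all genes. SKP2, the ubiquitin ligase subunit that marks CDKN1B for degradation, was at 0.540% with IAA and at 0.105% ± 0.103 with DMSO (SD, n = 3), a centred log2 difference of 1.99; without 4sU its libraries reached 0.471%, and its rate did not pass the test of labelling (log2 change -0.01, limma adjusted p = 0.995). CCNH, the cyclin of the CDK-activating kinase, was at 0.397% against 0.0514% ± 0.0546, a difference of 2.14. Without 4sU CCNH was at 0.0465% ± 0.0224 (SD, n = 3). Its rate did not pass the test of labelling either (log2 change -0.03, limma adjusted p = 0.953). TFDP2, a partner of E2F factors, was at 0.0456% against 0.321% ± 0.0645, a difference of -2.07. Without 4sU TFDP2 was at 0.0807% ± 0.0705 (SD, n = 3), so its value in the single IAA library was at the level of background. It had between 169 and 255 reads per library.

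Over the 7 libraries, CDK2 had the widest range of total mRNA among the members, 2.11 log2 units. The genes with the most similar profile, by the root mean square distance of centred log2(CPM + 1) values over 7359 genes, were LAMTOR1 (distance 0.106), MYBL2 (0.129) and REPIN1 (0.136). LAMTOR1 was at 31.4, 70.7 and 86.6 CPM without 4sU, at 125, 79.8 and 103 CPM with DMSO and 4sU and at 116 CPM with IAA. Like CDK2, it was lowest in no 4sU replicate 1. Pearson's r with CDK2 was 0.99 for LAMTOR1, 0.98 for MYBL2 and 0.98 for REPIN1, across libraries that these genes share, so these values are descriptions only.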

How the data were processed

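RNA of JUN-AID MCF10A cells was measured by SLAM-Seq with QuantSeq 3′ libraries in 9 samples: 3 no 4sU, 3 DMSO 4sU and 3 IAA 4sU, of which the IAA columns were identical and counted as 1. Reads were processed by the authors with the nf-core/slamseq pipeline on build hg19, per the submitters' processing notes; aligner, strand setting, filters and versions are not given in the sources used here. The authors deposited, per 3′ interval, the T>C conversion rate as a fraction, not corrected for background, and a signal headed CPM. The deposited CPM values were whole multiples of 1 read in 100% of cases (tolerance 0.01 reads), which gave the depth and the reads for edgeR and DESeq2. Interval length was deposited beside them.

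RefSeq transcripts were matched to symbols (97.7% of rows), repeats of an interval were dropped, CPM was summed and rates were averaged over the distinct intervals of a gene. The sources name DESeq2 on T-to-C counts, but the table holds no such counts, so limma 3.58.1 (trended, robust, R 4.3.3) was used: on log2(CPM + 1) after TMM scaling for genes with 1 CPM in at least 3 of 6 libraries, and on log2(rate + 0.0005) for genes with 200 reads on average. P-values were two-sided and adjusted by Benjamini-Hochberg over all genes tested, with a threshold of 0.05. IAA values were compared without a test. edgeR 4.0.16, DESeq2 1.42.0, other pseudocounts and filters, the interval with most reads, the replicate block and leaving out replicates were alternatives. Scripts were tested on simulated data.

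Same-numbered DMSO 4sU and no 4sU libraries deviated together in total mRNA (correlations of 0.39, 0.31 and 0.36 over genes). Correlations between differently numbered libraries were not calculated, so these values cannot decide whether the numbers pair the libraries. The pairing used for the block comes from the numbers in the sample titles. In rates the correlations were 0.0076, -0.012 and 0.0075. All 10 members were named, pathway genes were named past a threshold or among the largest changes, and the 3 genes nearest to the most variable member were added. Members and lists were chosen with earlier results of these data known. Sequences came from GRCh37 with GENCODE 44 and from RefSeq.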

Additional observations from a re-analysis of the deposited data

How the results depend on the processing

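Intervals of conversion rates could not be given, since the number of T positions is not in the table, and genes under 200 reads, such as CCNE2, were limited by depth. Over the alternatives, 190 values of the labelled against unlabelled comparison kept direction and side of the threshold, 6 lost their call and 4 small differences that had not passed the test changed sign: RB1 in total mRNA without TMM scaling (0.0186), and in total mRNA with replicates left out CCND3 (-0.0266 to 0.3005), CCNE1 (-0.130 to 0.02005) and RB1 (-0.0987 to 0.0016). Of the IAA values, 124 moved by less than the spread and 8 by more. These 8 were CDKN1B in total mRNA with a pseudocount of 5 CPM, and the others were in rate. CCND1, CCND3 and CDK6 moved without centring and when multiplied by CPM, and CCND2 when multiplied by CPM. Some of the 124 changed sign where the spread was wide. With DMSO libraries left out, CCNE1 in rate ran from -0.84 to 0.58 (DMSO SD 1.44) and RB1 from -0.53 to 0.13 (DMSO SD 0.75).

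Genes called in total mRNA numbered 192, and 416 with DESeq2; leaving out replicates gave 26 to 444, and 0 to 1 members. Genes called in rate numbered 4526, and 2780 to 3209 with replicates left out, with 3 to 4 members called instead of 5. For IAA, 24 genes passed the fold in total mRNA, 6 with a pseudocount of 5 CPM and 15 to 111 with DMSO replicates left out; 111 was without DMSO 4sU replicate 1 and 15 without replicate 3. In rate 822 genes passed, 536 with a pseudocount of 0.001, 2522 with no minimum of reads and 956 to 1009 with DMSO replicates left out. Without centring, the split of these genes was 513 higher and 315 lower instead of 393 and 429. Without TMM scaling the split in total mRNA was 28 higher and 3 lower instead of 16 and 8. The causes were not tested.

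With the replicate number as a block, 207 genes were called in total mRNA, all lower, and 4075 in rate; the block changed no call of a member. No paired analysis was possible because 1 distinct library remained for IAA against DMSO.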
